A study of Danio rerio with 8 samples.

Results

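Heart genes were followed in whole zebrafish larvae of a cilia mutant: the natriuretic peptide genes nppa and nppb, the cardiac myosin genes myh6, myh7l, myl7 and vmhc, and the troponin gene tnnt2a. The genes were chosen by symbol. Of the 7 symbols, 5 were found among the 20409 genes of the table, namely nppa (NCBI gene ID 321442), myl7 (30592), tnnt2a (58071), myh6 (386711) and myh7l (768300). RefSeq gives vmhc as a synonym of gene 30616, which the table lists as myh7, and its values are given beside those of the 5. No value of nppb was analysed here.

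The series holds 8 RNA sequencing libraries, each of 30 pooled whole larvae at 4 days post fertilization, without treatment. The larvae came from 4 clutches that carry smh (schmalhans), a mutation in ccdc103, without which motile cilia lack the dynein arms that drive their beat, so that homozygous larvae have paralysed cilia. Each clutch gave 1 library of mutants (-/-), picked by a tail that curls down, and 1 library of siblings that mixed wild-type and heterozygous (+/-) larvae. The question was whether a transcript known to respond to load on the heart differed between the genotypes while transcripts that track the amount of heart muscle did not.

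Natriuretic peptides are hormones made by heart muscle. Their transcription rises when the wall of the heart is stretched, and the peptides act through guanylate cyclase receptors that make cGMP, which relaxes vessels and promotes the loss of salt and water. In the zebrafish embryo nppa also marks the working muscle of the chambers as they form. myl7 encodes the regulatory myosin light chain of heart muscle and tnnt2a its troponin T. myh6 encodes the myosin heavy chain of the atrium and vmhc that of the ventricle, and all 4 are in common use as markers of heart muscle in zebrafish.

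Values are log2 CPM (each gene's share of the library total on a log2 scale, a unit inferred from the numbers), which the authors had already brought to the same distribution in every library. The depth of the libraries is unknown. ccdc103 itself was low in both groups, between 0.40 and 1.00 log2 CPM in controls and between 0.33 and 1.00 in mutants (exact two-sided permutation p = 0.486), so its level does not check the labels. Both groups expressed the heart muscle genes above 2 log2 CPM in all 8 libraries.

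nppa was higher in mutants in 4 of 4 clutches, by 1.74-fold on average. In the order of clutches 1 to 4, its level was 3.64, 2.89, 2.12 and 2.91 log2 CPM in the sibling controls. In the mutants it was 4.32, 3.45, 3.00 and 4.00 log2 CPM. The groups overlapped, because the control of clutch 1 was above the mutants of clutches 2 and 3, while each mutant lay above its own clutch mate. The mean was 2.89 ± 0.62 for controls against 3.69 ± 0.58 for mutants (SD, n = 4), and 0.342% of all tested genes had a log2 fold change at least as high. This difference of 0.80 log2 units (SE 0.35, 95% confidence interval 0.02 to 1.58) did not pass in limma without a clutch term, here the main fit (unadjusted p = 0.0447, Benjamini-Hochberg adjusted p = 1). Clutch mates resembled each other, and when clutch entered the model as a block nppa rose by 0.80 ± 0.10 (SE, log2 units; limma adjusted p = 0.00024). That call was lost when gene variances were moderated with neither a trend on the mean nor robust estimation (blocked limma adjusted p = 0.0632).

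The muscle markers were also higher in mutants in 4 of 4 clutches, by a smaller amount than nppa. The light chain gene myl7 had 4.47, 4.38, 4.22 and 4.66 log2 CPM in the controls of clutches 1 to 4 and 4.97, 4.54, 4.86 and 4.75 in the mutants. Its groups overlapped in the control of clutch 4, which was above the mutant of clutch 2. The means were 4.43 ± 0.19 and 4.78 ± 0.18 log2 CPM (SD, n = 4), a 1.27-fold difference with a 95% confidence interval of 1.05 to 1.54.

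The troponin gene tnnt2a had 3.79, 3.78, 3.72 and 3.22 log2 CPM in controls and 4.05, 4.05, 3.90 and 3.89 log2 CPM in mutants. It was the 1 member whose groups did not overlap, a pattern that 1.87% of all 20154 tested genes showed in the same direction. The control of clutch 4 stood well below the other controls. The means differed 1.26-fold (95% confidence interval 1.02 to 1.56), and without that control the difference was 0.20 in place of 0.34 log2 units.

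**Figure D1:**
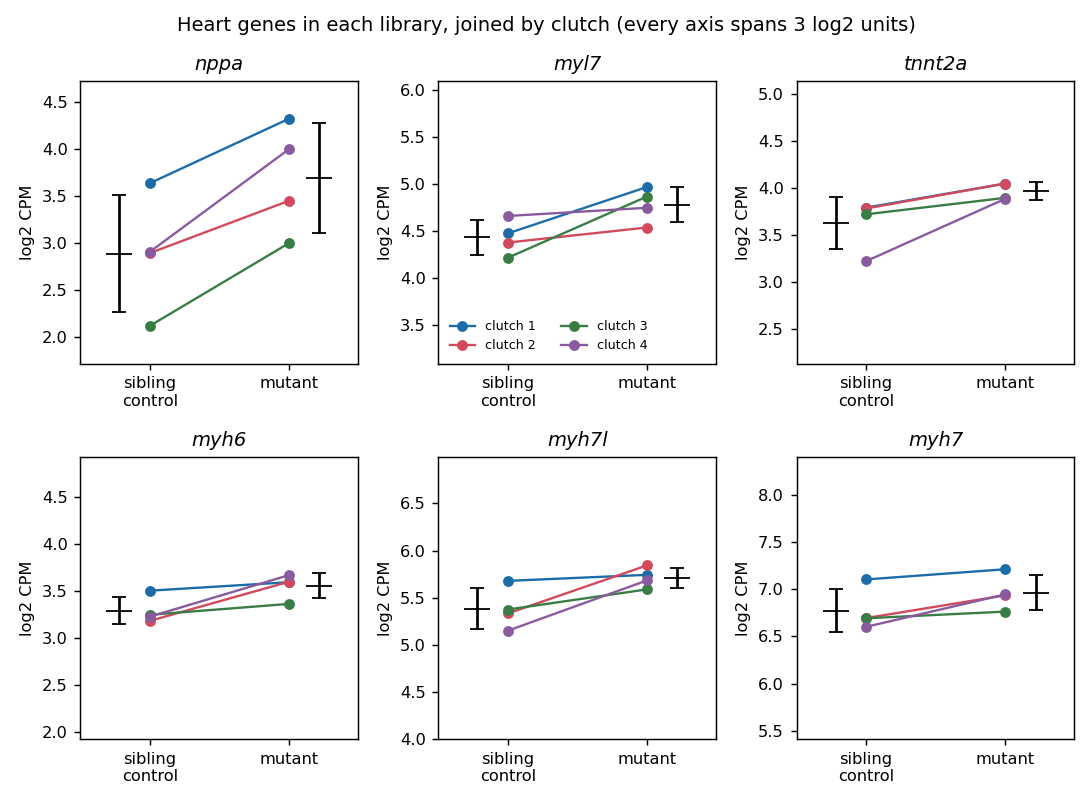
Level of each heart gene (log2 CPM, vertical axes of equal span) in the sibling control and mutant library of each clutch, with lines joining clutch mates and black bars for the mean and SD of 4 libraries. Every line rises from control to mutant, and nppa has both the steepest lines and the widest spread between clutches.

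Neither myl7 nor tnnt2a passed in either fit. In limma without a clutch term the unadjusted p was 0.0189 for myl7 and 0.0327 for tnnt2a (adjusted p = 1 for each). With clutch as a block both stood just outside the threshold, at an adjusted p of 0.0583 for myl7 and 0.0686 for tnnt2a in limma, with SE of 0.09 log2 units for each. The blocked 95% confidence intervals were 0.16 to 0.54 log2 units for myl7 and 0.14 to 0.53 for tnnt2a.

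The myosin heavy chain gene myh7l, related to the ventricular gene, was higher 1.26-fold. Its controls had 5.68, 5.33, 5.37 and 5.15 log2 CPM and its mutants 5.74, 5.84, 5.59 and 5.68 log2 CPM. The control of clutch 1 was above the mutant of clutch 3, so the groups overlapped. With clutch as a block myh7l rose by 0.33 ± 0.08 (SE, log2 units; limma adjusted p = 0.0339), and it did not pass without the block (unadjusted p = 0.0174, adjusted p = 1). The blocked call was lost without clutch 2 and without clutch 4 (limma adjusted p up to 0.258), and with the plainer variance moderation (adjusted p = 0.294).

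The atrial myosin gene myh6 had 3.50, 3.18, 3.24 and 3.22 log2 CPM in controls and 3.59, 3.59, 3.36 and 3.66 log2 CPM in mutants. The control of clutch 1 was above the mutant of clutch 3. The means differed by 0.26 log2 units and the gene did not pass (limma adjusted p = 0.208 with the block, 1 otherwise).

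The gene listed as myh7 had 7.11, 6.70, 6.69 and 6.60 log2 CPM in controls and 7.21, 6.94, 6.76 and 6.95 log2 CPM in mutants, the smallest difference of the 6 genes at 1.14-fold. Its log2 fold change of 0.19 became 0.11 when the clutch 1 mutant was left out and 0.30 when its control was. Controls and mutants overlapped through clutch 1, whose control was above the mutants of the other clutches. The gene did not pass (limma adjusted p = 0.148 with the block, 1 otherwise). myh7 and myh7l are next to each other in the gene order of RefSeq, and the myosin heavy chain genes have similar sequences, so the assignment of reads to one or the other is uncertain. None of the 6 genes lies on the chromosome of ccdc103.

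In all, 2 of the 5 members passed with clutch as a block, both higher in mutants, against 0.948% of all tested genes called higher in that fit. Without the block 0 of 5 passed, against 0.0744% called in either direction, although all 5 had an unadjusted limma p under 0.05, which 1.94% of all genes had in that direction. Each of the 5 was higher in 4 of 4 clutches, as were 11.0% of all tested genes. The members' median was 0.34 log2 units, against 0.00 over all tested genes. nppa and myh7l had been singled out in earlier results of these data, so these counts describe the members and are no independent evidence. In bulk samples of whole larvae, more heart muscle cells and more RNA of these genes per cell cannot be told apart.

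In the authors' deposited table, 0 of the 5 members passed an adjusted p of 0.05, where 0.118% of its genes did. There the p was 0.0139 for nppa (adjusted p = 1), 0.0027 for myh7l (adjusted p = 0.452) and 0.00328 for tnnt2a (adjusted p = 0.507). The same table, as deposited by the authors, gives nppa a mean of 3.52 log2 CPM, where the 8 libraries average 3.29. The libraries behind those p-values may therefore not be only these 8. The log2 fold change of nppa there, 0.80, equals the one found here.

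Set against myl7 in the same library, nppa was higher in mutants in 4 of 4 clutches but not beyond the spread between libraries. The log2 ratio of nppa to myl7 was -0.84, -1.48, -2.09 and -1.75 in the controls of clutches 1 to 4. It was -0.65, -1.09, -1.87 and -0.75 in the mutants. The groups overlapped, with the control of clutch 1 above the mutants of clutches 2 and 3. The difference in means was 0.45 log2 units, or 1.37-fold (exact two-sided permutation p = 0.314 over 70 arrangements, where 0.0286 is the smallest possible). The differences within clutches were 0.19, 0.39, 0.23 and 1.00, and an exact sign-flip test of 4 such values cannot go below p = 0.125, the value it gave.

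Other markers in place of myl7 gave similar ratios. nppa gained 1.38-fold on tnnt2a (exact permutation p = 0.371) and 1.53-fold on myh7 (exact permutation p = 0.143), each in 4 of 4 clutches. On myh7l it gained 1.39-fold (exact permutation p = 0.257) and on myh6 1.45-fold (exact permutation p = 0.2), also in 4 of 4. In clutch 2, however, the gain was only 0.05 log2 units on myh7l and 0.14 on myh6. It was 0.56 to 0.66 and 0.59 to 0.76 in the other clutches. Within clutches 1 to 4 the gain on tnnt2a was 0.43, 0.29, 0.70 and 0.43 log2 units (mean 0.46 ± 0.17 SD). The gain on myh7 was 0.58, 0.31, 0.81 and 0.74 (mean 0.61 ± 0.22 SD), and that on myl7 had a mean of 0.45 ± 0.38 (SD, n = 4 clutches). The gain on myl7 thus varied most, through clutch 4. The permutation over libraries does not use the clutches, so the spread between clutches enters its p. The exact paired test cannot pass with 4 clutches. Neither therefore settles whether nppa rose beyond the muscle markers, and no blocked fit of the ratios is given. A lack of change in the muscle markers was not shown either.

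**Figure D2:**
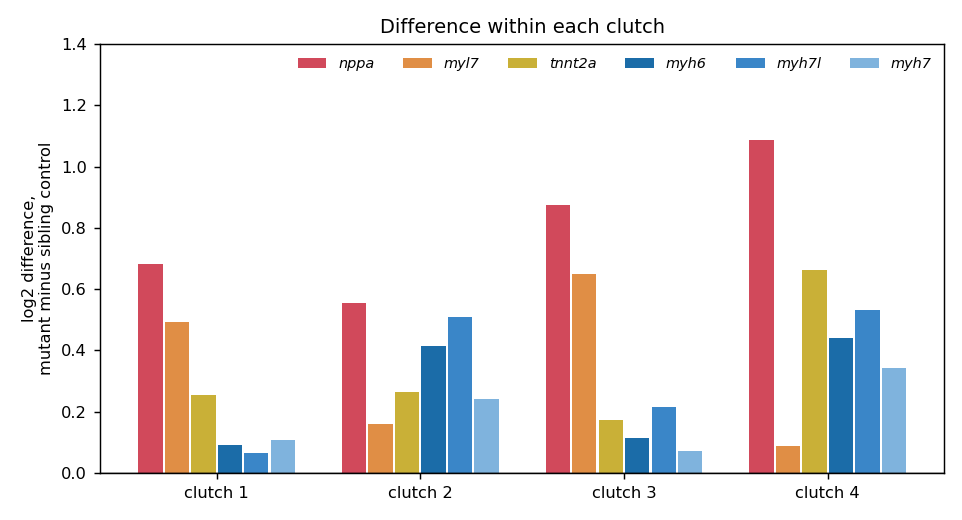
Difference of each heart gene within each clutch (log2 units, mutant minus sibling control), 1 bar per gene. All bars are above 0, nppa is the tallest in every clutch, and myl7 is tall in clutches 1 and 3, where the myosin heavy chain genes are short.

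The muscle genes did not share 1 pattern over the clutches. The difference of myl7 was 0.49 and 0.65 log2 units in clutches 1 and 3 but 0.16 and 0.09 in clutches 2 and 4. myh7l went the other way, with 0.06 and 0.21 in clutches 1 and 3 and 0.51 and 0.53 in clutches 2 and 4. myh6 resembled myh7l, at 0.09 and 0.12 in clutches 1 and 3 and 0.41 and 0.44 in clutches 2 and 4. myh7 had 0.11 and 0.07 in clutches 1 and 3 and 0.24 and 0.34 in clutches 2 and 4. tnnt2a differed most in clutch 4, by 0.66 log2 units, and by 0.17 to 0.26 in the others. With 1 pair of libraries per clutch, whether clutches differ in these responses was not tested.

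Over the 8 libraries, the genes whose log2 values were most like those of nppa, among 16233 genes with a mean of at least 2 log2 CPM, were gclm, dysf, lgals1l1, polr3c and the unnamed gene LOC100148510. Their Pearson correlations with nppa were 0.98, 0.97, 0.97, 0.96 and 0.96. dysf encodes dysferlin, which repairs the muscle cell membrane, gclm a subunit of the enzyme that starts glutathione synthesis, lgals1l1 a galectin and polr3c a subunit of RNA polymerase III. These genes were picked as the most similar, and the 8 points share genotype and clutch, so the values describe these libraries only.

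Of the heart genes, myh7 and myh6 were most like nppa, with correlations of 0.85 for each, and tnnt2a least, with 0.50. For myl7 the most similar genes were hsd17b14, pih1d1, abcc5, zbtb22b and faim2a, with correlations from 0.92 to 0.95. No heart gene was among them, and after group means were removed myl7 correlated over the 8 libraries by 0.46 with nppa, 0.15 with myh7, -0.09 with myh6, -0.37 with myh7l and -0.54 with tnnt2a.

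The rest of the natriuretic pathway held few calls. Of the 26 symbols listed, 20 were measured, and in the blocked fit nppa and 1 other rose and 1 fell. The one that fell, nppcl2, passed the filter only through its controls, so its call is description only. In the main fit 0 passed (limma, 3 with an unadjusted p under 0.05, nppa among them). Over all 20154 tested genes, 688 had an unadjusted limma p under 0.05 in the main fit and 2727 in the blocked fit. The blocked fit called 0.948% of all tested genes higher and 1.39% lower. The median of the 20 was 0.08 log2 units, and 14 lay above 0.

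Among the ligands, the C-type peptide genes act mainly outside heart muscle. Those measured, nppc, nppcl and nppcl2, were lower in mutants in 4 of 4 clutches, as were 2207 of all 20154 tested genes. No values of nppcl1, nppcl3 and nppcl4 were analysed. nppcl2, gene 100148055, had 0.33, 0.15, 0.50 and 0.67 log2 CPM in controls and -1.24, -0.43, -0.82 and -0.63 in mutants. It fell by 1.19 log2 units (limma adjusted p = 0.0396 with the block and 0.318 without it), though its level was near 1 CPM. Only its controls reached 0 log2 CPM, and through them alone it passed the filter. Its call and the gap between its groups are therefore description only. nppc and nppcl had log2 fold changes of -0.27 and -0.24 and did not pass (blocked limma adjusted p = 0.426 and 0.5).

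Among the receptors, npr1b, a guanylate cyclase receptor for the heart peptides, was higher. It had 3.49, 3.63, 3.64 and 3.78 log2 CPM in controls and 3.87, 3.94, 4.14 and 3.93 in mutants. These groups did not overlap, a pattern that 1.87% of all tested genes showed in the same direction. npr1b rose 1.26-fold in the blocked fit (limma adjusted p = 0.0485), which the main fit did not call (adjusted p = 0.977). Its paralog npr1a differed by 0.36 log2 units and npr2, the receptor for C-type peptides, by 0.23, without passing (blocked limma adjusted p = 0.184 and 0.186). Each was higher in 4 of 4 clutches, as were 11.0% of all tested genes, and the groups of npr2 did not overlap either. npr3, which clears the peptides from the circulation, differed by 0.09 log2 units. corin, the protease that activates the atrial peptide, differed by 0.32 log2 units and did not pass (blocked limma adjusted p = 0.33). Its differences in clutches 1 to 4 were 0.96, 0.03, 0.13 and 0.16, so clutch 1 set most of the mean. Downstream, the cGMP-dependent kinase genes prkg1a and prkg1b differed by 0.11 and 0.04 log2 units, and pde5aa, which encodes a cGMP-degrading enzyme, by -0.35 (blocked limma adjusted p = 0.1).

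**Figure D3:**
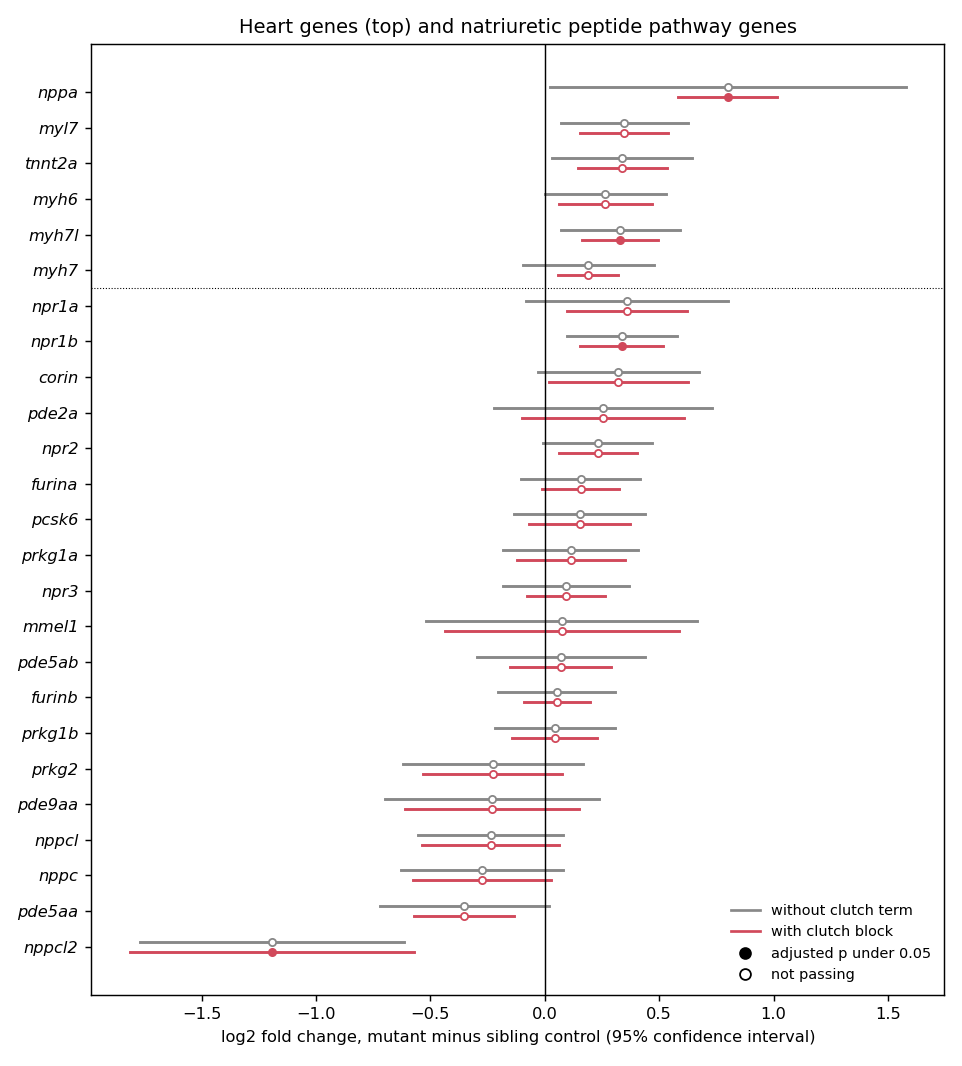
Log2 fold change of the 6 heart genes and of 19 other genes of the natriuretic peptide pathway, with 95% confidence intervals from limma without (grey) and with (red) a clutch term. Filled points pass an adjusted p of 0.05, and nppa, myh7l, npr1b and nppcl2 do so only with the clutch term. nppcl2 passed the filter only through its controls.

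Few genes passed in the wider list of cardiac sarcomere genes. Of 27 cardiac sarcomere genes, the members among them, the main fit called 0 (limma, 4 with an unadjusted p under 0.05). The blocked fit called 1 higher and 1 lower, against 0.948% and 1.39% of all tested genes. The one that rose was myh7l. The one that fell was tcap, which encodes the titin cap protein of striated muscle, by 0.42 log2 units (blocked limma adjusted p = 0.0147). Without the members and myh7, the other 22 sarcomere genes had a median of 0.05 log2 units, with 14 above 0. The light chain gene cmlc1 had a mean log2 fold change of 0.27 and did not pass (blocked limma adjusted p = 0.142). Its differences in clutches 1 to 4 were 0.42, 0.39, 0.06 and 0.20. A rise in 4 of 4 clutches was seen in 11.0% of all tested genes. Many of these genes are also expressed in skeletal muscle, which makes up far more of a larva than the heart. The list median therefore does not describe the heart alone.

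Of 20 cardiac transcription factor genes 0 passed in either fit (limma, 0 unblocked and 3 blocked with an unadjusted p under 0.05), with a median of 0.06. Of all 20154 tested genes, 688 unblocked and 2727 blocked had such a p. The abundant members mef2ca and mef2aa, of the MEF2 family, differed by 0.04 and 0.07 log2 units. nkx2.5, an early heart regulator, was near 1 CPM, had a mean log2 fold change of 0.38 and did not pass (blocked limma adjusted p = 0.575). Its differences in clutches 1 to 4 were 0.08, 0.87, 0.56 and 0.01, so clutches 2 and 3 set most of the mean. A rise in 4 of 4 clutches was seen in 11.0% of all tested genes. Of 18 genes of excitation and calcium handling, 0 passed in either fit (limma, 0 and 4 at an unadjusted p under 0.05). There casq2, of the calcium store, differed by 0.07 log2 units and jph2, which ties that store to the surface membrane, by 0.12. mef2ca, mef2aa, casq2 and jph2 were named for their abundance in whole larvae. The part of their RNA that came from the heart was not measured.

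In a list of 23 other genes that stretch, flow or hypertrophic growth are known to change, no gene was called higher. Of the 23, 2 were higher and 5 lower in 4 of 4 clutches, as were 2217 and 2207 of all 20154 tested genes. The largest log2 fold change of the list was 0.34. In the blocked fit 0 were called higher and 2 fell, against 0.948% and 1.39% of all tested genes. The main fit called 0 (limma, 1 with an unadjusted p under 0.05). The median was -0.05 log2 units, and 9 of 23 lay above 0. ankrd1b, a zebrafish counterpart of the stretch-induced muscle gene ANKRD1 of mammals, fell by 0.27 log2 units (blocked limma adjusted p = 0.0333). Its mean in controls was 6.89 log2 CPM of whole larvae, and the part of ankrd1b RNA that came from the heart was not measured. acta1b, which encodes skeletal muscle actin, fell by 0.38 log2 units (blocked limma adjusted p = 0.000858) and belongs to the fast muscle list as well. The flow-responsive gene klf2a had a log2 fold change of -0.14.

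Lists of other tissues give the setting of these values. Over all tested genes, 0.948% were called higher and 1.39% lower with the block. In slow skeletal muscle 0 of 14 genes rose and 1 fell with the block, the Z-disc gene myoz2a by 0.45 log2 units (blocked limma adjusted p = 0.000585). In fast skeletal muscle 0 of 23 rose and 2 fell, acta1b and the troponin I gene tnni2a.4 (-0.26), and the list median was -0.10. Of these 23, 9 were lower and 1 higher in 4 of 4 clutches, as were 2207 and 2217 of all 20154 tested genes. An unadjusted p under 0.05 in blocked limma was found for 8 that were lower and 3 that were higher. Over all tested genes it was found for 1388 and 1339. The summed level of the fast muscle list ran from 83479 to 93639 CPM in controls and from 85779 to 89952 CPM in mutants. That of the slow list ran from 2719 to 3366 CPM in controls and from 2916 to 3212 CPM in mutants. For the 5 heart members it ran from 87.0 to 111 CPM in controls and from 110 to 133 CPM in mutants. With myh7 added it ran from 184 to 249 CPM in controls and from 219 to 282 CPM in mutants, so the groups overlapped.

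**Figure D4:**
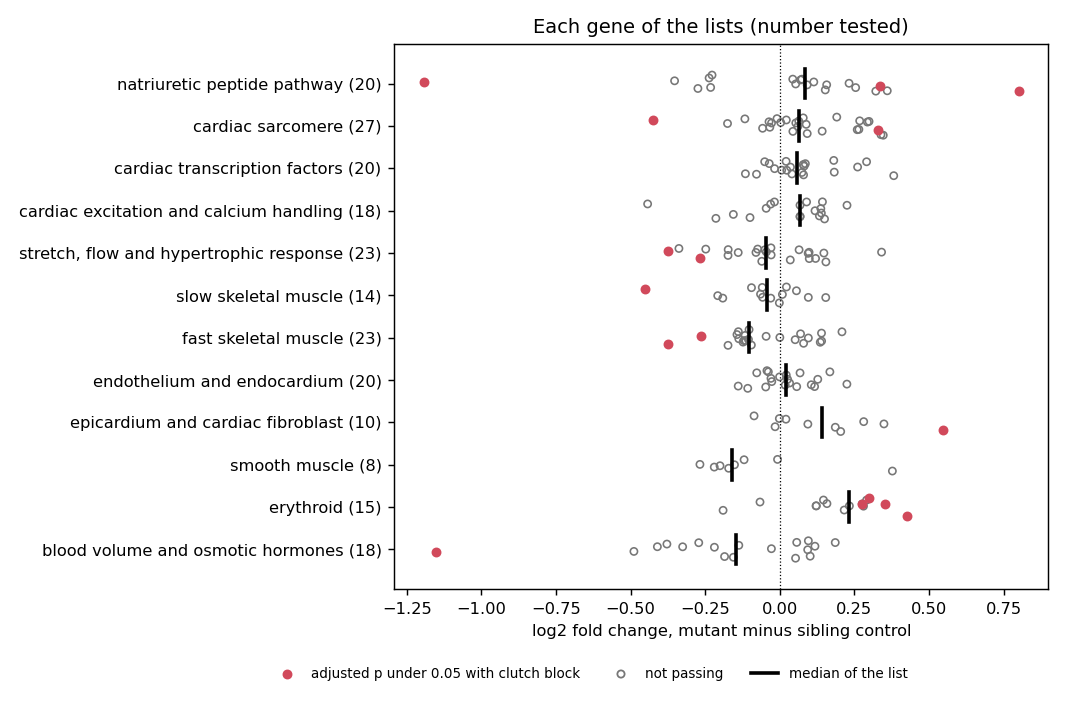
Log2 fold change of every tested gene in 12 lists (points), with the median of each list (bar) and genes that pass with clutch as a block in red. The medians of the natriuretic, sarcomere, cardiac transcription factor and excitation lists lie between 0.06 and 0.08. The part of these lists' RNA that came from the heart was not measured. nppcl2 and nppa stand farthest out in the natriuretic list, and 13 of 15 erythroid genes lie above 0 with 4 passing.

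Some red blood cell genes were also higher in mutants. Of 15 erythroid genes, 4 rose with the block, where 0.948% of all tested genes were called higher, namely hbbe1.1, hbae3, slc4a1a and hbbe2, and the main fit called 0 (limma, 2 with an unadjusted p under 0.05). Their log2 fold changes were 0.43, 0.30, 0.35 and 0.28. The list median was 0.23 log2 units, 13 of 15 genes lay above 0, and 11 were higher in 4 of 4 clutches, as were 11.0% of all tested genes. The summed erythroid level ran from 1343 to 2141 CPM in controls and from 1665 to 2448 CPM in mutants. The globin genes have near-identical copies, so their separate values are uncertain, and hbbe1.1, hbae3 and slc4a1a lie on the chromosome of ccdc103, as does tcap. The part of the erythroid level in the heart result was not tested.

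Endothelial, endocardial and smooth muscle genes did not pass. Of 20 endothelial and endocardial genes 0 passed in either fit (limma, 0 and 2 at an unadjusted p under 0.05), with a median of 0.02, and fli1a, a marker of endothelium, differed by 0.03 log2 units. Their summed level was 429 to 481 CPM in controls and 433 to 471 CPM in mutants. Of 8 smooth muscle genes 0 passed in either fit (limma, 1 and 4 at an unadjusted p under 0.05), and 1 lay above 0. An unadjusted limma p under 0.05 was found for 688 and 2727 of all 20154 tested genes in these fits. acta2 and myh11a, both of the contractile apparatus, had log2 fold changes of -0.17 and -0.12. In the list of 10 epicardial and fibroblast genes 1 rose with the block, where 0.948% of all tested genes were called higher. It was wt1a, by 0.55 log2 units (blocked limma adjusted p = 0.00724), though wt1a also marks podocytes of the kidney. The main fit called 0. The list median was 0.14 log2 units, and 7 of 10 genes lay above 0. In blocked limma 3 had an unadjusted p under 0.05, all higher, as did 1339 of all 20154 tested genes in that direction.

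Of 18 genes listed for other hormones and transporters of blood volume and salt balance, 1 fell with the block, against 1.39% of all tested genes. It was the urotensin-related peptide gene urp2, which fell by 1.15 log2 units (blocked limma adjusted p = 0.0149). None of the 18 rose in either fit, and the main fit called 0 (limma, 1 with an unadjusted p under 0.05). In blocked limma 6 had an unadjusted p under 0.05, all lower in mutants, as did 1388 of all 20154 tested genes in that direction. In 4 of 4 clutches 6 were lower and 0 higher, as were 2207 and 2217 of all tested genes. The list median was -0.15 log2 units. urp2 had 0.82 to 0.97 log2 CPM in controls and -0.69 to -0.05 in mutants. Only its controls reached 0 log2 CPM, and through them alone it passed the filter, so its call is description only. A part of urp2 in blood volume or salt balance was not tested.

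The calls of the blocked fit differed in how they held when a clutch was left out. Those of nppa, acta1b, hbbe1.1, myoz2a and wt1a passed whichever clutch was left out. Those of npr1b and nppcl2 were lost each time (limma adjusted p up to 0.177 and 0.193). ankrd1b passed without clutch 3, tcap and hbae3 without clutch 1 or 3, hbbe2 without clutch 3, slc4a1a without clutch 1 or 4, urp2 without clutch 1 or 3, and tnni2a.4 without clutch 2, 3 or 4. With the plainer variance moderation urp2, which passed the filter only through its controls, kept the blocked call (limma adjusted p = 0.0392). The other named genes lost it. Without the block, leaving out 1 library moved the log2 fold change of some of these genes by over 1.5 times. Without the clutch 1 control, that of ankrd1b was -0.10 and that of tnni2a.4 was -0.16. That of tcap lay between -0.65 and -0.22 when either library of clutch 1 or 2 was left out. hbae3 stood at 0.18 without the mutant and 0.48 without the control of clutch 1, and hbbe2 at 0.13 without the control and 0.45 without the mutant of clutch 4.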

How the data were processed

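RNA of pooled whole larvae was sequenced on a DNBSEQ instrument and filtered with SOAPnuke 1.5.2, per the labels' protocols. Of tools, the submitters' processing notes list limma, RSEM, Bowtie2 and HISAT2 2.0.4, with the build GRCz11, and give no role for any. The authors deposited normalized values per library, taken here as log2 CPM, and a table of log2 fold changes, mean log2 CPM, p-values and adjusted p-values. The score columns deposited by the authors were not used. No counts were analysed, so depth and counting error are unknown.

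Genes with at least 0 log2 CPM in 4 of 8 libraries were tested (20154 of 20409) with limma 3.58.1 in R 4.3.3, with empirical Bayes moderation with trend and robust estimation and Benjamini-Hochberg adjustment over all tested genes. No pseudocount was added. The labels state that numbers are clutches, so they pair the libraries. Deviations of clutch mates correlated by 0.72, 0.50, 0.50 and 0.30. The fit without clutch is the main one, and the blocked fit is given where it changes a call. The ratio of nppa to myl7 was tested by exact permutation. The fits were tested on simulated data.

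Members and lists were chosen with earlier results of these data known. Named are all members, up to 4 called genes per list or else 2 abundant ones, and the 5 genes most like nppa and myl7. cmlc1, nkx2.5 and the uncalled genes of the natriuretic pathway were named after their values were seen. Genes were matched by symbol, or by gene ID through RefSeq (GRCz12tu). No sequences are printed, as none were analysed here. Whether libraries of a group came from different parents is not given. The p-values without the block set the group difference against the spread between these libraries. Those with the block set it against the spread of the differences within these clutches.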

Additional observations from a re-analysis of the deposited data

Results flagged for a closer look

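Among 56 groups of 4 libraries checked, 10 had 1 library far from the other 3, where chance alone gives about 2.8 for normally distributed values. All groups reuse the same 8 libraries and many of the genes were named for a call, so the excess over 2.8 was not tested. For tnnt2a the control of clutch 4 was low, at 3.22 log2 CPM. In clutch 1 the controls were high for acta1b (10.99 log2 CPM), tnni2a.4 (10.72), fli1a (5.92), hbbe1.1 (9.17) and hbae3 (9.62), and the mutants were high for wt1a (3.91), hbbe1.1 (9.53) and hbae3 (9.74). For hbbe2 the control of clutch 4 was low, at 5.87 log2 CPM. Of these libraries, the 2 flagged for hbbe1.1 and the 2 for hbae3 were clutch mates.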

How the results depend on the processing

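The 6 heart genes stayed higher in mutants in every alternative run. The block, the filters and the variance moderation leave a log2 fold change as it is, and all their clutch differences were above 0. The sign could therefore not change in those runs, nor when a clutch was left out of the block. Calls of all genes numbered 15 without the block, 472 with the replicate block and 50 with the replicate block without trend and robust moderation. They numbered 7 with a mean of at least 5 CPM, 41 with array weights, 7 to 21 when 1 library was left out, and 419, 235, 447 and 178 in the blocked fit without clutch 1, 2, 3 or 4. With the block nppa (0.80) and myh7l (0.33 log2 units) passed. Without 1 clutch in the block nppa was 0.84, 0.88, 0.78 and 0.70, in that order, and passed each time. myh7l ranged from 0.26 to 0.42 and passed without clutch 1 (0.42) or clutch 3 (0.37), and myl7 ranged from 0.25 to 0.43 and passed without clutch 4 (0.43). Without the block, leaving out 1 library moved nppa from 0.54 to 1.05, myh7 from 0.11 to 0.30 and tnnt2a from 0.20 to 0.39 log2 units, with adjusted p never under 0.784 for nppa in limma. The ratio of nppa to myl7 moved from 0.27 to 0.71 (exact permutation p from 0.114 to 0.486), lowest when the clutch 3 control and highest when the clutch 3 mutant was left out. Among other named genes, leaving out 1 library moved mef2ca from -0.0076 to 0.13 log2 units and casq2 from -0.013 to 0.17, and klf2a from -0.23 to -0.03. The cause was not tested. Unknown depth limits nppcl2 and nkx2.5, which lie near 1 CPM, and urp2, which was below 1 CPM in every mutant.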
